A study of Drosophila melanogaster with 29 samples.

Results

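Ribosomal proteins are the protein part of the cytosolic ribosome, whose small subunit reads the mRNA and whose large subunit joins the amino acids. Genes named RpS encode proteins of the small subunit and genes named RpL those of the large subunit, and RpLP genes encode the acidic stalk proteins and the stalk base to which they bind. In Drosophila several of these proteins are encoded by a gene used throughout the body and by a second copy, a paralog, used mainly in the gonads. Such copies include RpS5b in the ovary and RpL22-like in the testis.

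The members were every gene whose symbol begins with RpL, RpS or RpLP followed by a digit, taken only from probes annotated with a single gene. In adults, 37 of 13966 probe sets met the rule, 1 for each of 37 genes. In embryos, 90 of 30377 spots did, for 38 genes, of which RpS15Ab was measured in embryos only. The current RefSeq annotation holds 92 genes whose symbols fit the same rule, and those without a probe of their own in these tables were not analysed here. They include RpS10b, RpS15Aa, RpS19a and RpL22, so that the widely used partners of several variant paralogs have no value below. A further 2 adult probe sets name a member together with another gene and were left out.

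By name, 35 of the 38 genes are ribosomal proteins. The other 3, RpLP0-like, RpL24-like and RpL7-like, resemble ribosomal proteins, and their relatives in yeast act in ribosome assembly. They are described apart as assembly relatives. Among the ribosomal proteins, 16 genes of the large subunit and 11 of the small subunit are called core genes here, and 8 second copies are called variant paralogs. These 8 are RpS5b, RpL10Aa, RpL22-like, RpL37-2, RpS10a, RpS15Ab, RpS19b and RpS28a. This sorting was made by name and known role with earlier results of these data in view, and it carries no test.

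The study asked how gain and loss of Mnn1 change gene expression. Mnn1 is the fly counterpart of menin, the protein lost in human multiple endocrine neoplasia. Embryos called mnn++ carried a full-length Mnn1 cDNA under GAL4 control, and each was set against 1 of 2 controls, cntrl1 and cntrl2, that carried the driver without that construct. The driver's name and how the controls differ are not given in the sources used here. Embryos were collected at 2-4, 4-6, 6-8 and 2-16 h from flies kept at 25 °C. The 2-colour arrays held each pairing once with mnn++ in Cy3 and once with mnn++ in Cy5. This gave 16 arrays of mnn++ against a control, plus 2 of cntrl1 against cntrl2 at 2-16 h.

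Adults of 3 to 5 days after eclosion were measured on 11 single-channel arrays. Females were 1 wt, 1 X113_X84 control, 2 heterozygotes (X113_Y79 and X84_X46) and 2 mnn- flies (X46_Y79 and Y79_X46). Males were 1 wt, 1 X113_X84 control and 3 mnn- flies (X46_Y79, Y79_X46 and Y79_Y79). The wt and X113_X84 arrays together are called non-mutant, giving 2 arrays of each sex. The labels do not say how many flies each array pooled, nor which tissues, and p-values measure the spread between these arrays, which may be technical. The labels call the mutant alleles protein-null. On the arrays labelled mnn- the Mnn1 probe set differed from non-mutants by -0.09 in males and by 0.36 in females, on the log2 scale. Neither difference passed the threshold used below. The probe set read 5.17 to 5.5 on the 3 mnn- male arrays against 5.40 and 5.51 on non-mutant males. It read 5.91 and 6.17 on mnn- females against 5.63 and 5.75. This RNA signal therefore does not check those labels.

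One array stood apart from its label's sex. The wt male array carried more signal of female genes than the other 4 males, although its testis and accessory gland genes lay with theirs. Its 13 eggshell and yolk probe sets averaged 9.704 on the log2 scale, against 6.819 to 6.907 on the other males. Its 16 probe sets of ovary germline genes averaged 5.247, against 4.612 to 4.764. Over 23 testis probe sets it averaged 7.267, inside the male range of 7.147 to 7.406. The wt female array also had more eggshell and yolk signal, 12.121 against 10.02 to 10.323 on the other females. What this signal comes from was not tested, and the results that the wt male array moves are given with and without it.

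The adult values are log2 signals of robust multi-array averaging (RMA), in which a difference of 1 is a 2-fold change. Differences were tested with limma over all probe sets, and a gene is said to be higher or lower only at a Benjamini-Hochberg adjusted p under 0.05. Core ribosomal protein genes sat near the top of the scale: leaving out RpS29, every core gene lay at the percentile 98.4 or higher on every array. Whether signal in that range still rises in proportion to RNA was not tested.

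Core ribosomal protein genes were lower in males than in females, without exception, by 1.2 to 2.45-fold. All 16 large subunit genes were lower, with a median log2 difference of -0.45 and a range from -0.79 to -0.28. All 11 small subunit genes were lower too, with a median of -0.51 and a range from -1.30 to -0.26. Over all members, 31 were lower and 6 higher in males, all 37 past the threshold. Across the whole array the same test called 65.4% of probe sets, 33.0% lower and 32.4% higher, with a median difference of 0.03, so a sex difference as such is common here. The members' median was -0.43.

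**Figure D1:**
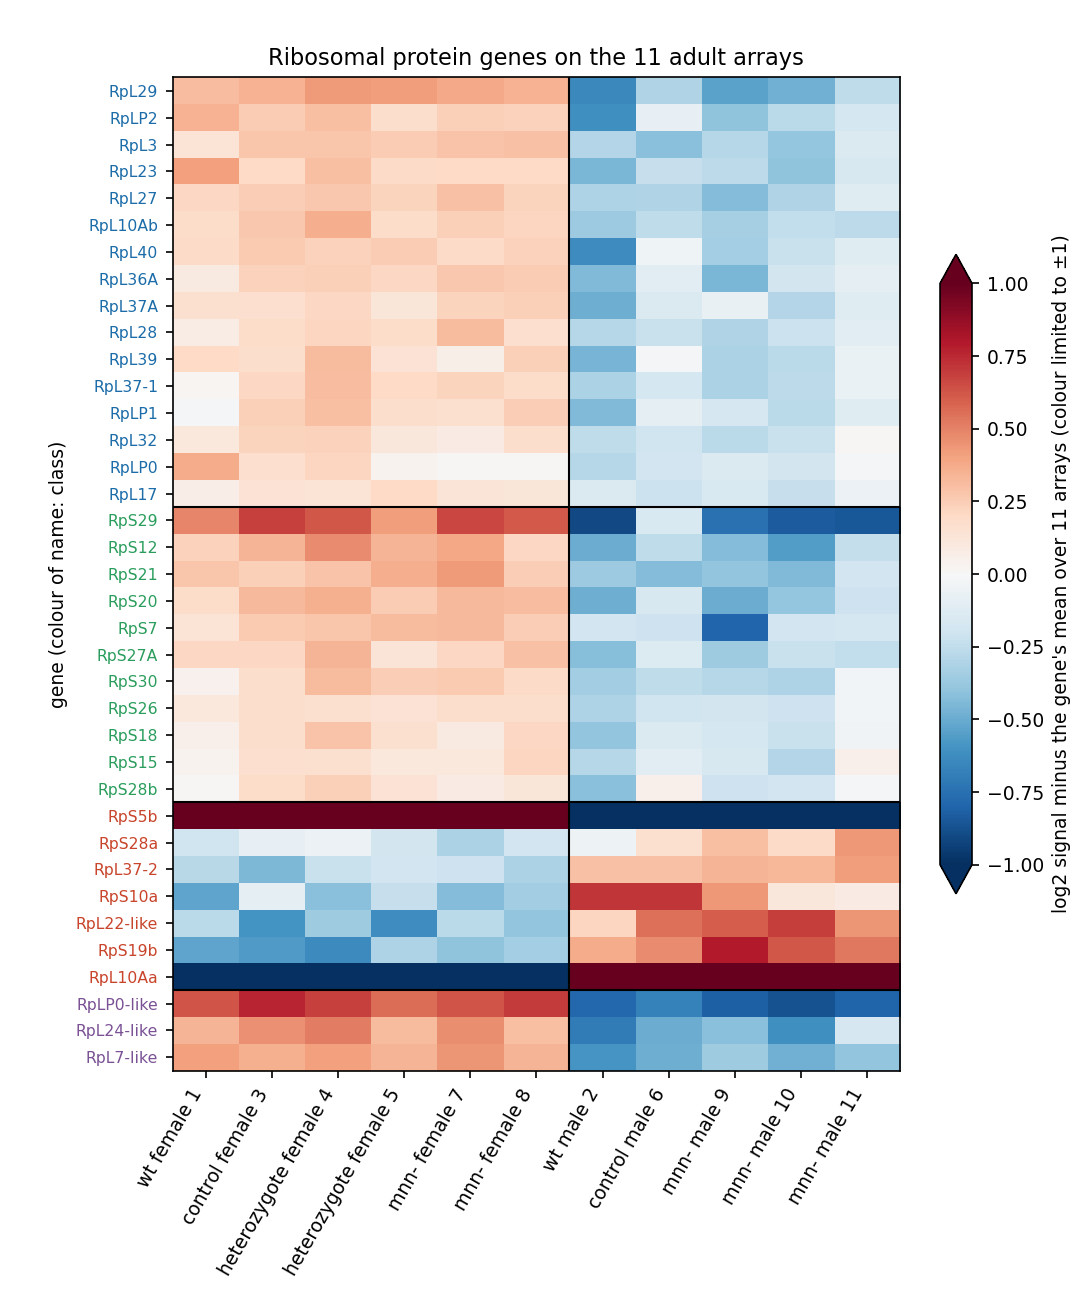
Heat map of the 37 genes (rows, named in the colour of their class) on the 11 adult arrays (columns, females left and males right), as log2 signal minus the gene's mean over all arrays, with colour limited to 1 in either direction. The 27 core genes at the top turn mostly from red in females to blue in males, with a few male values above the gene's mean, as for RpS28b on the control male array. RpS5b does so far beyond the colour limit, and the other 6 variant paralogs run the opposite way.

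RpL29, RpLP2, RpL3 and RpL23 had the largest differences in the large subunit. RpL29, a large subunit protein found in eukaryotes, read 12.08, 12.13 and 12.20 as the lowest, median and highest of 6 females. Its 5 male values were 11.13 (wt), 11.47 (control) and 11.24, 11.29 and 11.52 (mnn-), so that every female exceeded every male. The difference was -0.79 ± 0.08 (SE; adjusted p = 2.77e-06). RpLP2, a stalk protein, fell by 0.57 ± 0.10, with 6 females at 11.92 to 12.09 and 5 males at 11.13 to 11.66. The other stalk protein, RpLP1, differed by -0.38 ± 0.09, and RpLP0, the base that holds both, by -0.30 ± 0.09 (adjusted p = 0.0121). RpL3, a core protein near the site of peptide bond formation, differed by -0.56 ± 0.07, and RpL23 by -0.55 ± 0.08. RpL40, which is made as a fusion with ubiquitin, differed by -0.49 ± 0.11. The smallest difference of the large subunit belonged to RpL17, which read 12.80 to 12.93 in females and 12.50 to 12.67 in males (-0.28 ± 0.06, adjusted p = 0.00134).

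RpS29 stood out among the small subunit genes. This short zinc-binding protein read 7.91, 8.12 and 8.18 as the lowest, median and highest of 6 females. Its male values were 6.59 (wt), 7.34 (control) and 6.75, 6.66 and 6.65 (mnn-), with the control male nearest to the females. The difference was -1.30 ± 0.13 (SE; adjusted p = 2.73e-06), a 2.45-fold change. RpS12 (-0.68 ± 0.08), RpS21 (-0.67 ± 0.07) and RpS20 (-0.63 ± 0.09) followed, each with all females above all males. RpS27A, like RpL40 a ubiquitin fusion, differed by -0.51 ± 0.08. At the other end, RpS15 (-0.30 ± 0.08) and RpS28b (-0.26 ± 0.09, adjusted p = 0.0292) were the core genes whose sexes overlapped. RpS28b read 11.96 to 12.19 in females and 11.53 (wt) and 11.74, 11.76 and 11.93 (mnn-) on 4 of the males, the X113_X84 control male lying above the lowest female.

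The whole core set shifted from array to array as well as between sexes. Relative to each gene's female mean, the median of the 27 core genes lay between -0.065 and 0.05 on the 6 female arrays and between -0.607 and -0.315 on the 5 male arrays. The wt male was the lowest of these, at -0.607, and the mnn- Y79_Y79 male the highest, at -0.315. The sexes did not overlap in this summary. In bulk RNA, fewer cells of a type and less RNA per cell cannot be told apart. The ovary germline list moved with the sexes, with sums of 109.92 to 115.01 over its 16 probe sets in females and 73.79 to 83.95 in males, and its part in the core genes' difference was not tested.

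**Figure D2:**
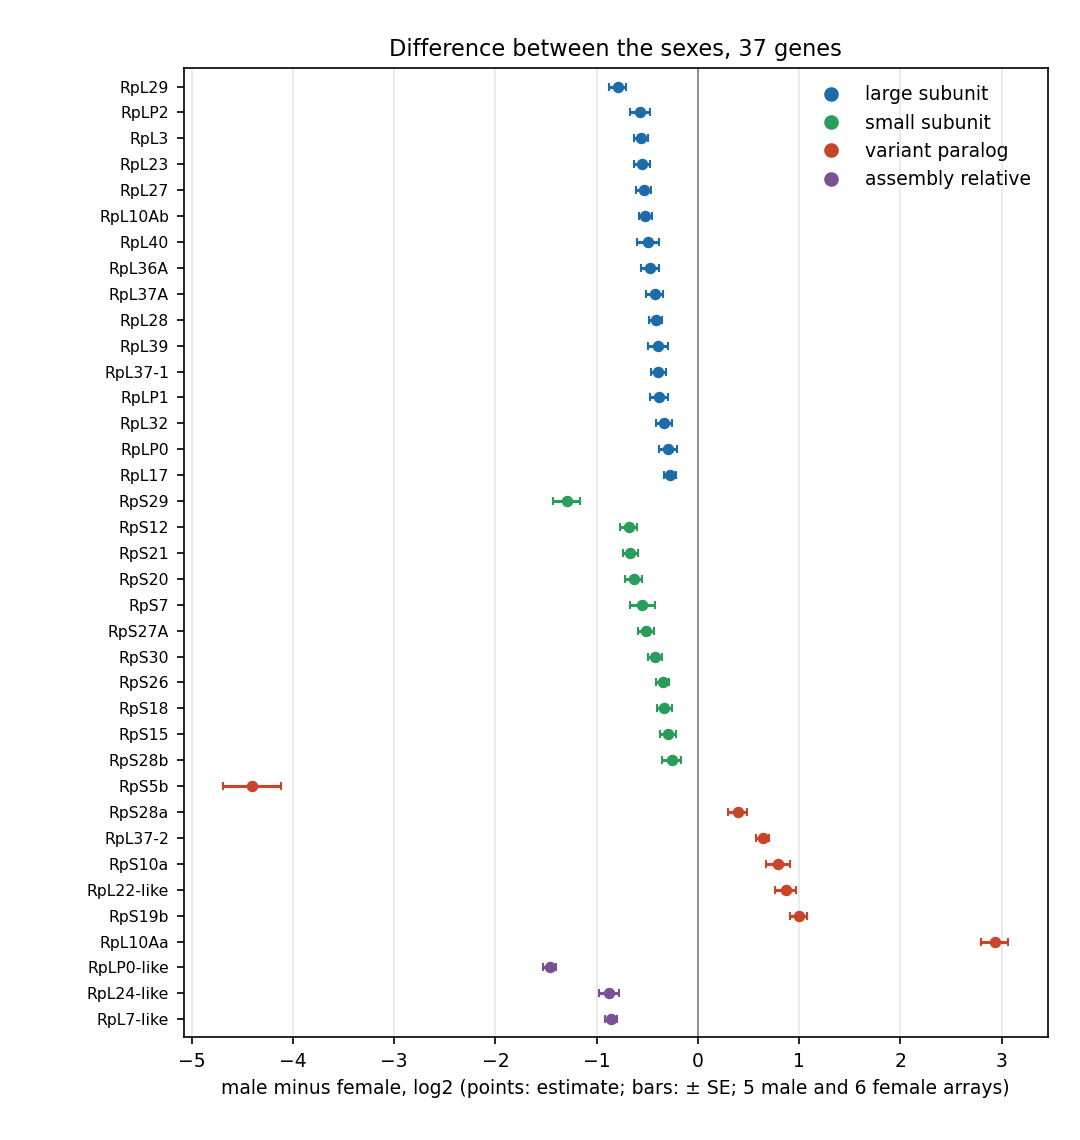
Male minus female difference of each of the 37 genes on the log2 scale (horizontal axis), from the fit over 6 female and 5 male arrays; points are estimates, bars are ± SE and colour gives the class. The 27 core genes and the 3 assembly relatives lie left of 0, and RpS5b at -4.41 and RpL10Aa at 2.93 are the extremes.

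Without the wt male array 6 members were higher and 30 lower in males, against 31.4% and 33.0% of all probe sets, and RpS28b (-0.17, adjusted p = 0.0821) no longer passed. After quantile normalization of the 11 arrays 6 were higher and 28 lower, against 32.0% and 35.2%, and RpLP0 (-0.11, adjusted p = 0.34), RpS15 (-0.12, adjusted p = 0.16) and RpS28b (-0.02, adjusted p = 0.815) did not pass. The 3 members on the X chromosome, RpL17, RpL37-1 and RpS28b, differed by -0.28, -0.39 and -0.26. RpL37-1 lay within the range of the other core genes. RpS28b and RpL17 had the smallest differences of all core genes, followed by RpLP0 at -0.30. Whether the chromosome plays a part was not tested.

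The assembly relatives were lower in males by more than most core genes. Core genes other than RpS29 lie near the top of the scale, so the limit given for that range applies to this contrast. RpS29, which lies lower on the scale, differed by -1.3. RpLP0-like, whose yeast counterpart helps build the large subunit, read 7.41, 7.51 and 7.62 as the lowest, median and highest of 6 females. In males it read 6.07 (wt), 6.18 (control) and 6.04, 5.98 and 6.05 (mnn-), a difference of -1.46 ± 0.06 (adjusted p = 1.62e-09). All 5 males lay over 1 log2 unit below the lowest female. RpL24-like differed by -0.88 ± 0.10 and RpL7-like by -0.86 ± 0.06. The genes listed for ribosome assembly and the nucleolus moved the same way: all 20 probe sets were lower in males, with a median of -1.74. Fib, the methyltransferase fibrillarin, differed by -2.17, and Nop56, a partner of fibrillarin, by -2.26.

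The variant paralogs split in both directions. Of the 7 measured in adults, 6 were higher in males and 1, RpS5b, was lower, by 21.2-fold. Counted by arrays, every male exceeded every female for these 6 genes (16.2% of members, against 25.6% of all probe sets). Every female exceeded every male for 29 of the 37 members, 78.4%, against 29.8% of all probe sets.

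RpS5b, a small subunit gene enriched in the ovary, had the widest difference of any member. Females read 11.94 at the lowest, 12.18 at the median and 12.24 at the highest, at the percentile 99.5 of their arrays or higher. Males read 9.11 (wt), 7.45 (control) and 7.44, 7.34 and 7.27 (mnn-). The wt male thus lay between the other males and the females. The difference was -4.41 ± 0.29 (SE; adjusted p = 4.14e-08), and without the wt male it was -4.81 ± 0.08, a 28-fold change. The same wt male array carried the eggshell and ovary germline signal given above, and the part of that signal in its RpS5b value was not tested.

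RpL10Aa had the largest rise in males. It is the second copy of RpL10Ab, which encodes a protein of the stalk that releases spent tRNAs. Females read 2.87 to 3.06, in the lowest 3.59% to 6.82% of values on their arrays, and males 5.52 (wt), 6.20 (control) and 6.25, 5.72 and 6.05 (mnn-). The difference was 2.93 ± 0.14 (SE; adjusted p = 2.48e-09), or 7.62-fold. Female values this near the bottom of the scale, where the lowest probe set of an array read 2.14 to 2.31, may not follow the RNA.

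RpS19b followed with a difference of 1.00 ± 0.08. Its females spanned 5.12 to 5.45, and its males read 6.13 (wt), 6.23 (control) and 6.55, 6.38 and 6.29 (mnn-). RpL22-like, the testis-enriched copy of RpL22, differed by 0.87 ± 0.10. Its females read 3.65 to 4.00 and its males 4.48 (wt), 4.82 (control) and 4.87, 4.96 and 4.71 (mnn-), the wt male being the lowest. RpS10a differed by 0.79 ± 0.12, from 4.29 to 4.72 in females to 5.53 (wt), 5.53 (control) and 5.25, 4.93 and 4.90 (mnn-) in males. RpL37-2 differed by 0.64 ± 0.06 and RpS28a by 0.39 ± 0.09 (adjusted p = 0.00237). The sexes of RpS28a almost touched, with the highest female at 5.35 and the lowest male, the wt, at 5.36. Testis genes moved with these 6 paralogs: the 23 testis probe sets summed to 105.31 to 108.68 in females and 164.37 to 170.33 in males, and the 9 accessory gland probe sets to 30.98 to 37.03 and 73.17 to 79.74. The part of either list in the paralogs' difference was not tested.

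**Figure D3:**
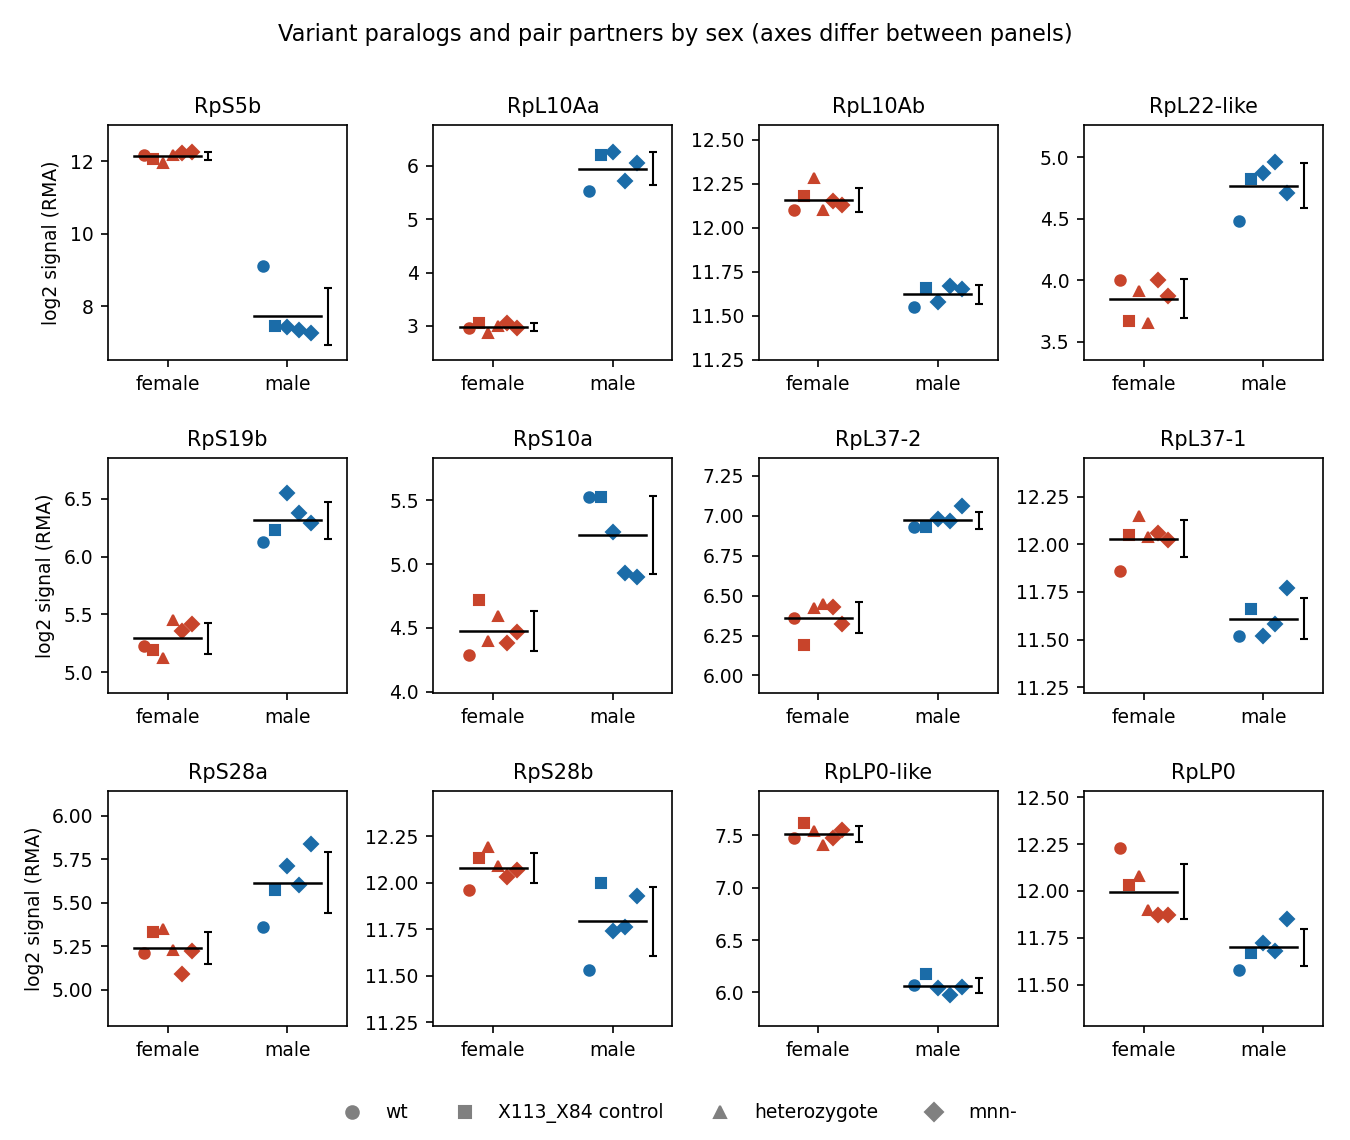
RMA log2 signal of RpS5b, the other variant paralogs, RpLP0-like and the pair partners on each adult array, by sex; markers give the genotype, lines the mean and bars ± SD (6 female and 5 male arrays), and the vertical axes differ between panels. RpS5b is above 11.9 in every female and at 9.11 in the wt male, while RpL10Aa, RpL22-like, RpS19b, RpS10a, RpL37-2 and RpS28a lie higher in males and their measured partners lower.

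For 4 pairs both copies had a probe set, so that the difference between copies could be taken within each array and compared between sexes. In 3 pairs the variant copy was higher and its partner lower in males, although the partner RpS28b lost its call under the settings named above. In the fourth, RpLP0-like and RpLP0 were both lower. RpL10Aa minus RpL10Ab ran from -9.41 to -9.09 in females and from -6.03 to -5.33 in males, a shift of 3.5. This pair carries the limit given for RpL10Aa, whose female values lie near the bottom of the scale. RpL10Ab itself was lower in males, by 0.52 ± 0.06 on the log2 scale. RpL37-2 minus RpL37-1 shifted by 1.03, with RpL37-1 differing by -0.39 ± 0.08. RpS28a minus RpS28b shifted by 0.66. RpLP0-like minus RpLP0 shifted by -1.15, the signal of the assembly relative falling by more than that of the ribosomal protein. RpLP0 lies near the top of the scale, with the limit given for that range. In each of the 4 pairs no female overlapped a male. The exact two-sided permutation p was 0.00216, the smallest that the 462 assignments of arrays to sexes allow (0.00216 adjusted over the 4 pairs). For the pairs of RpL10Aa and RpL37-2, each copy alone already separated the sexes, in opposite directions. RpLP0-like read at least 7.41 in females and at most 6.18 in males. That gap is wider than the whole range of RpLP0 over the arrays, 11.58 to 12.23. For every pair but that of RpS28a the p was thus fixed by the results above and adds nothing to them. Levels of different probe sets are not comparable, and these shifts show unequal change only.

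The sex pattern was present in each genotype. In non-mutants 5 members were higher and 28 lower in males, against 24.7% and 28.7% of all probe sets. In mnn- flies 6 were higher and 29 lower, against 28.1% and 30.4%. RpS5b differed by -3.84 ± 0.37 in non-mutants and by -4.88 ± 0.34 in mnn- flies, and RpL10Aa by 2.85 and 2.99. Without the wt male array, RpS5b differed by -4.67 in non-mutants. The test of the difference between these sex effects, the sex by genotype interaction, called 0 members and 0% of probe sets. At an unadjusted p under 0.05 it held 2 members (5.41%, against 4.56% of all probe sets), RpLP0 (0.38) and RpS28a (0.37). They, RpS5b (-1.04) and RpS10a (-0.43) had the smallest p and did not pass (adjusted p = 0.992 for each). The interaction value of RpS5b depended on which non-mutant male was kept. It was -0.213 without the wt male and -1.87 without the control male. Each of these leaves 1 non-mutant male, whose spread is assumed from the other groups.

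Other genes of protein synthesis were also mostly lower in males, with exceptions among gene copies. Of 43 initiation factor probe sets 25 were lower and 11 higher, with a median of -0.31. The cap-binding protein eIF4E1 differed by -1.36, whereas its relatives eIF4E3, eIF4E4 and eIF4E5 differed by 3.44, 2.77 and 2.46. Of 6 elongation and release factors 5 were lower and eEF1alpha2, at 1.30, was higher. Mitochondrial ribosomal proteins, which build the separate ribosome of that organelle, were lower for 59 of 66 probe sets and higher for 1, with a median of -0.68. Among 4 other components 3 were lower, including Rack1, a scaffold on the small subunit, at -0.81. Among 8 probe sets of growth regulators 7 were lower, including 3 for Tif-IA, a factor for rRNA transcription, at -1.75 to -1.41.

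Loss of Mnn1 gave no change in these genes that passed the test. Between mnn- and non-mutant adults 0 of 37 members were called, against 0.0143% of probe sets, and at an unadjusted p under 0.05 there were 2 (5.41%, against 7.40% of all probe sets). The median difference was 0.05 over the members and -0.002 over all probe sets, with 28 members (75.7%) above 0, against 49.0% of all probe sets. RpS10a had the smallest p, at -0.31 ± 0.12 (adjusted p = 0.574). RpS19b (0.20 ± 0.08, adjusted p = 0.608), RpS5b (-0.45 ± 0.29, adjusted p = 0.785) and RpL22-like (0.15 ± 0.10, adjusted p = 0.797) came next. The value for RpS5b rested on the wt male array and was 0.02 ± 0.09 without it. RpS19b was the single member, 2.7%, whose mnn- arrays lay above the non-mutant arrays in both sexes, and 2.03% of all probe sets did so.

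Within each sex the members again did not pass. In females 0 were called (0.00716% of probe sets), with RpLP0 at -0.26 ± 0.11 having the smallest p (adjusted p = 1.00), followed by RpS19b (0.18), RpL28 (0.11) and RpS30 (0.12). RpLP0 read 11.87 and 11.87 in mnn- females, 12.23 in the wt and 12.03 in the control female. In males 0 were called (0.0286% of probe sets), with 3 at an unadjusted p under 0.05 (8.11%, against 8.48% of all probe sets). RpS10a read 5.25, 4.93 and 4.90 in mnn- males against 5.53 in both non-mutants, a difference of -0.51 ± 0.14 (adjusted p = 0.303). RpS5b differed by -0.93 ± 0.34 (adjusted p = 0.467). It was -0.10 ± 0.13 without the wt male, and without the control male it was -1.76 (adjusted p = 6.96e-05). Each of these leaves 1 non-mutant male, whose spread is assumed to be that of the other groups. RpS28a (0.26 ± 0.11) and RpS19b (0.22 ± 0.12) had the next smallest p. Heterozygous against non-mutant females gave 0 members and 0% of probe sets, with 0 members at an unadjusted p under 0.05 (against 2.21% of all probe sets). RpL37-2 (0.15), RpS30 (0.17), RpLP0 (-0.14) and RpL37-1 (0.14) had the smallest p there (adjusted p = 1.00 for each).

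Between genotypes no paralog pair shifted past the test. The shifts between mnn- and non-mutant arrays were 0.06 for RpL10Aa minus RpL10Ab, 0.03 for RpL37-2 minus RpL37-1, 0.05 for RpS28a minus RpS28b and -1e-05 for RpLP0-like minus RpLP0. Exact two-sided permutation p-values, with labels exchanged within sex, were 0.65, 0.767, 0.633 and 1, where 60 assignments allow no p under 0.0167.

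The embryo values are log ratios, read as log2 and signed so that a positive value means more RNA in mnn++. Neither the base nor the sign is stated with the files, and the direction is likely rather than known. It rests on the 2 Mnn1 spots, which on this reading were higher in mnn++ on all 4 arrays of the 2-16 h window, by 0.25 to 0.84 and by 0.40 to 0.79. The members leaned with the dyes: 57 of 90 spots (63.3%) had a higher ratio where mnn++ was labelled with Cy3 than with Cy5, against 47.4% of all spots. Dye effects as such were not particular to them. The median absolute difference between orientations was 0.11 over the members and 0.14 over all spots. Over all spots, arrays of the same orientation correlated at a median of 0.329, and those of opposite orientation at -0.247. The values below average both orientations.

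Between mnn++ and control embryos no ribosomal protein spot was called. Mnn1 itself was not called either: its 2 spots read 0.03 and 0.14 at 2-4 h, 0.08 and 0.15 at 4-6 h, 0.24 and 0.25 at 6-8 h and 0.56 and 0.62 at 2-16 h. Over the 4 windows they averaged 0.23 and 0.29 (adjusted p = 0.227 and 0.107). Over the 4 windows 0 of 90 spots passed, against 0.260% of all spots, with 11 at an unadjusted p under 0.05 (12.2%, against 11.4% of all spots). The tests over windows took the 4 windows as replicates, although they are different stages and 2-16 h spans the other collections. The median over the members was 0.01, and 53 spots (58.9%) lay above 0, against 48.0% of all spots. Averaged over their spots, 24 of 38 genes lay above 0, from -0.09 for RpS5b to 0.16 for RpS15Ab. If the sign of the ratios is the opposite one, 14 of 38 lay above 0, from -0.16 for RpS15Ab to 0.09 for RpS5b.

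RpL3, RpS15Ab and RpS10a had the spots with the smallest p. RpL3 was printed in 8 spots that differed from each other. Its spot 10158 lay below 0 in all 8 combinations of control and window, from -0.35 to -0.06, with a mean of -0.18 ± 0.04 (adjusted p = 0.0989). Spot 9482 was also below 0 in all 8, at -0.13 ± 0.04 (adjusted p = 0.226), whereas over all 8 spots the means ran from -0.18 to 0.09. The average of RpL3 was -0.04. Other genes had spots closer together, with a median range of 0.03 between spots of 1 gene.

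RpS15Ab, a second copy of a small subunit protein, was above 0 in 7 of 8 combinations at both of its spots. Spot 11013 read 0.05 and 0.45 at 2-4 h against cntrl1 and cntrl2, -0.05 and 0.44 at 4-6 h, 0.37 and 0.22 at 6-8 h and 0.02 and 0.02 at 2-16 h. Its mean was 0.19 ± 0.05 (adjusted p = 0.121), and without the 2-16 h window it was 0.25 (adjusted p = 0.0406). RpS15Ab also had the strongest dye effect among the members: its spots averaged 0.52 and 0.43 with mnn++ in Cy3, and -0.14 and -0.18 with mnn++ in Cy5. The sign of its ratio thus followed the dye, and its mean takes both orientations in equal number.

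RpS10a, at 0.14 ± 0.05 and 0.13 ± 0.05 for its 2 spots (adjusted p = 0.329 and 0.356), drew on 2 combinations. At 2-4 h its spots read 0.52 and 0.56 against cntrl2 but 0.06 and 0.04 against cntrl1. At 4-6 h they read 0.39 and 0.37 against cntrl1 but -0.01 and 0.11 against cntrl2. The control that gave the higher value thus changed from one window to the next.

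**Figure D4:**
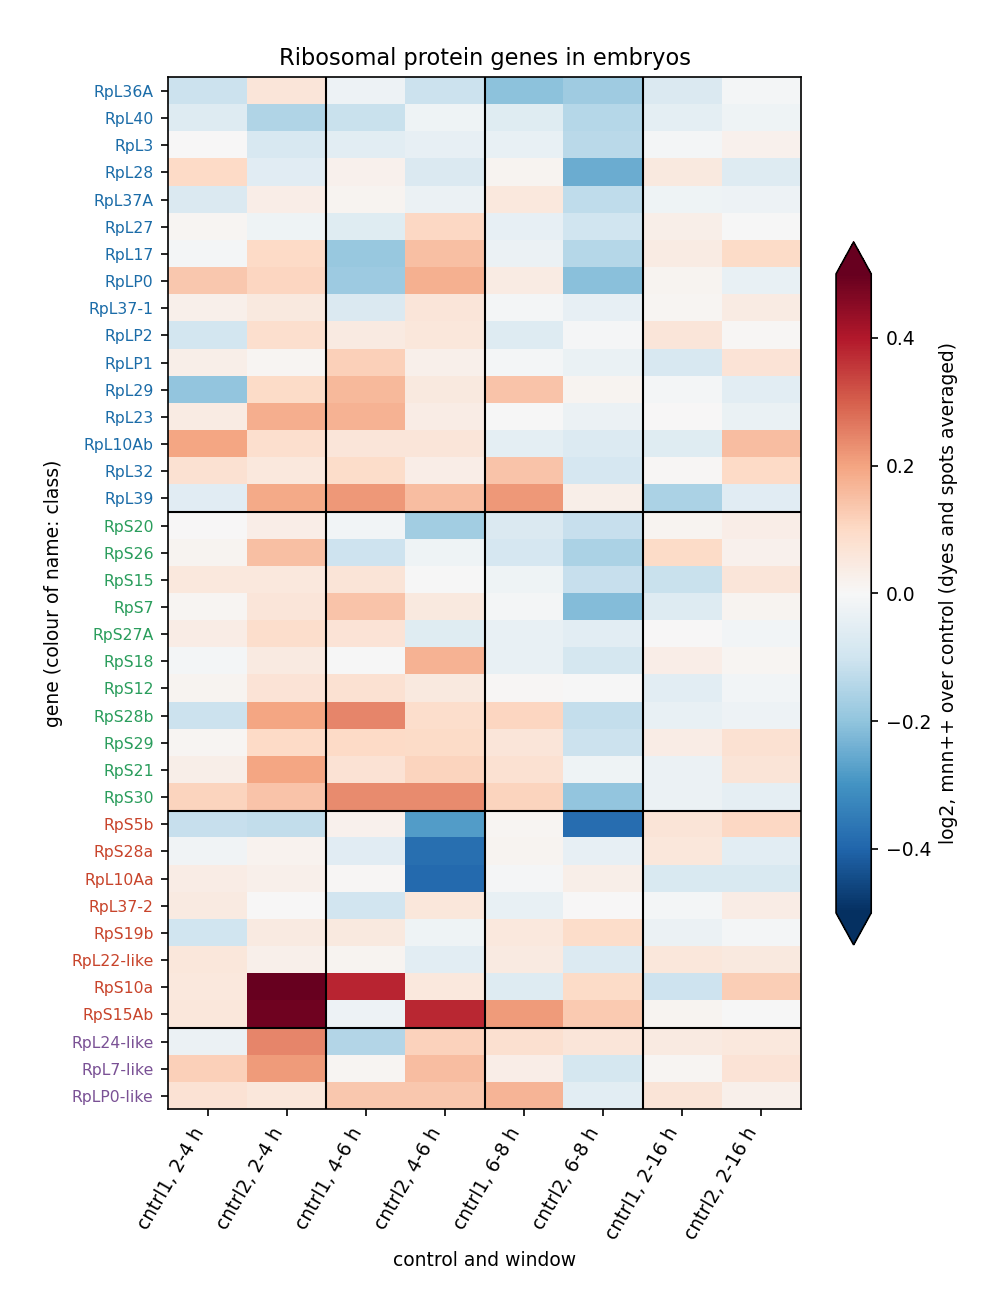
Heat map of the 38 genes (rows, named in the colour of their class) in the 8 combinations of window and control (columns), as the log2 ratio of mnn++ over control averaged over dyes and over the spots of a gene. Values of RpS10a and RpS15Ab against cntrl2 at 2-4 h, 0.542 and 0.488, are the highest, and most genes lie below 0 against cntrl2 at 6-8 h.

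In single windows no spot passed, 0% of all spots in each. The spread in these fits, and in the F test below, was that between the 2 controls of a window, not between replicate embryos. The members' median was 0.04 at 2-4 h (65 of 90 spots above 0), 0.04 at 4-6 h (54 spots), -0.05 at 6-8 h (33 spots) and 0.002 at 2-16 h (46 spots). The controls did not share this course. Against cntrl1 the number above 0 was 49, 54, 43 and 45 in the same order, and against cntrl2 it was 66, 57, 24 and 48. Of all spots on the arrays, 48.3% to 50.7% lay above 0 in the windows. With the controls taken apart the share was 47.6% to 50.6%. On the arrays of cntrl2 at 6-8 h the members' median was -0.039 in one orientation and -0.126 in the other, so both dyes lay below 0. Against cntrl1 at 6-8 h the medians were 0.062 and -0.063, with opposite signs. The F test across the windows 2-4, 4-6 and 6-8 h called 0 spots (0%), and 4 members (4.44%) had an unadjusted p under 0.05, near the 4.19% of all spots.

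The spots of smallest p in single windows did not pass. At 2-4 h they were RpL3 (-0.22), RpL10Ab (0.24), RpL7-like (0.21) and RpL23 (0.28), each with adjusted p = 0.621, and 8 spots (8.89%) had an unadjusted p under 0.05, against 7.33% of all spots. At 4-6 h they were RpS28a (-0.34), RpL3 (-0.22), RpS30 (0.25) and RpL39 (0.24), with adjusted p from 0.354, and 9 spots (10.0%) had an unadjusted p under 0.05, against 10.3% of all spots. At 6-8 h they were spots of RpL3 (-0.28 and -0.23), RpL28 (-0.25) and RpL36A (-0.21), with adjusted p from 0.903, and 11 spots (12.2%) had an unadjusted p under 0.05, against 5.23% of all spots. At 2-16 h they were spots of RpL3 (0.18 and 0.14), RpL17 (0.21) and RpL39 (-0.14), each with adjusted p = 1.00, and 2 spots (2.22%) had an unadjusted p under 0.05, against 2.68% of all spots.

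**Figure D5:**
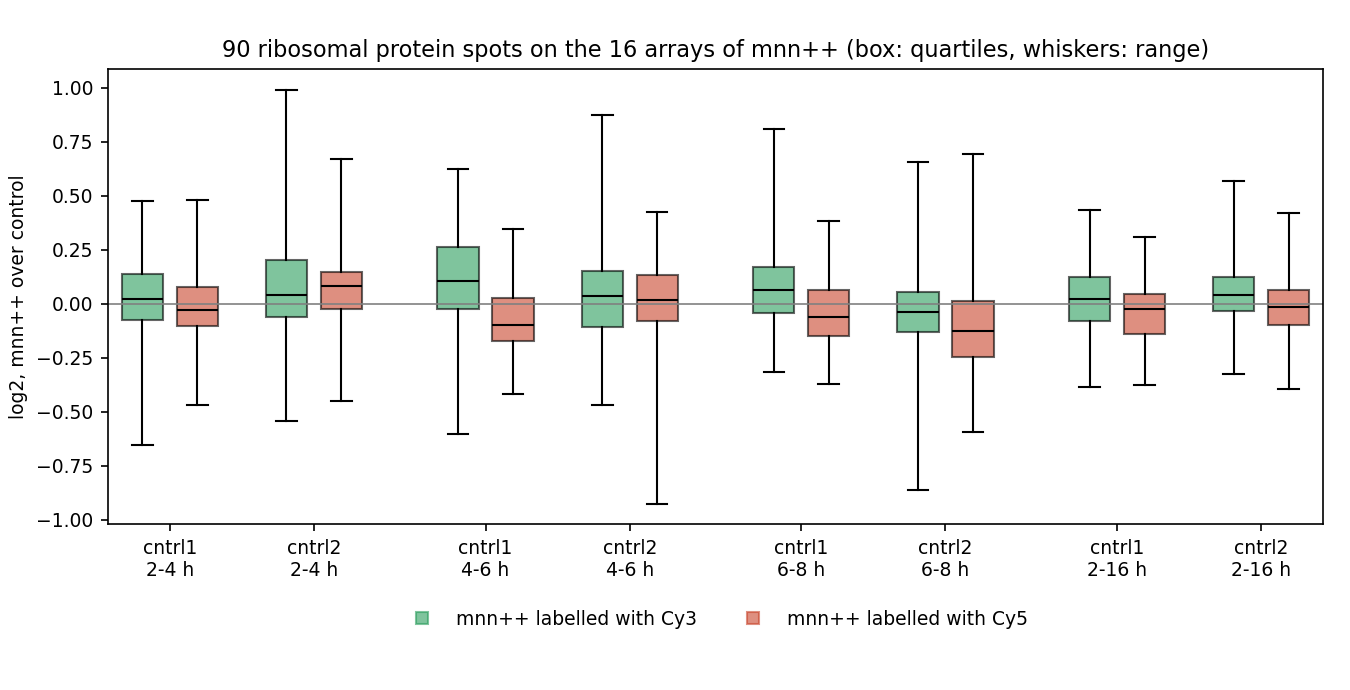
Distribution of the 90 ribosomal protein spots on each of the 16 arrays of mnn++ against a control, as log2 ratio of mnn++ over control (vertical axis), by control and window, coloured by the dye of mnn++; boxes give quartiles, lines medians and whiskers the full range. Medians lie within 0.126 of 0 on every array, and against cntrl1 they are above 0 with Cy3 and below 0 with Cy5 in each window.

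Between the copies of a pair, the widest gaps in embryos were those of RpL10Aa and RpS28a against cntrl2 at 4-6 h. There the spots of RpL10Aa averaged -0.387 and those of RpL10Ab 0.061, while against cntrl1 in the same window they averaged 0.006 and 0.059. In the same combination RpS28a averaged -0.378 and RpS28b 0.089, against -0.057 and 0.243 with cntrl1. Spots of one gene did not read alike on the array with mnn++ in Cy5, at -0.06 and -0.87 for RpL10Aa and at -0.93 and -0.27 for RpS28a. With mnn++ in Cy3 the gap of RpL10Aa to RpL10Ab was -0.52 and that of RpS28a to RpS28b -0.31, and with mnn++ in Cy5 they were -0.38 and -0.63. RpL37-2 ran from -0.094 to 0.056 and RpL37-1 from -0.072 to 0.059 over the 8 combinations. RpLP0-like ran from -0.052 to 0.17 and RpLP0 from -0.21 to 0.176. RpS5b was lowest against cntrl2, at -0.279 at 4-6 h and -0.381 at 6-8 h, where cntrl1 gave 0.021 and 0.009. With 4 windows no test of these pairs was made.

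The controls were compared through mnn++, window by window. Of the 90 spots 0 differed between cntrl1 and cntrl2, against 0.0395% of all spots. At an unadjusted p under 0.05 there were 2 (2.22%, against 7.67% of all spots). The median of the 90 spots was 0.000375, with 45 spots above 0 and 45 below. RpL28 (-0.19 at 2 spots, adjusted p = 0.550 and 0.588), RpS5b (-0.16) and RpL10Aa (-0.20) had the smallest p, a negative value meaning less RNA in cntrl1. On the 2 arrays of cntrl1 over cntrl2 at 2-16 h, the spots of RpS5b averaged -0.18 and -0.12, the sign of the mean over windows. Through mnn++ in the 2-16 h window alone they read 0.078 and 0.001. The direct and indirect values of that window thus did not share a sign. On the direct arrays the other named spots did not keep the sign of their mean over windows. The 2 of RpL28 averaged 0.04 and 0.10, the opposite sign, and that of RpL10Aa averaged 0.01.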

How the data were processed

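Embryo RNA was hybridised to 18 two-colour arrays and adult RNA to 11 single-channel arrays, grouped by their titles. The embryo values were deposited as log ratios, and the submitters' processing notes name limma 2.12.0 for them; base and sign are not stated, and they were read as log2 and multiplied by -1, which left mnn++ and, on direct arrays, cntrl1 as numerator. The deposited adult values are log2 RMA signals from affy 2.12.0, per the submitters' processing notes. The genome build is not given in the sources used here. Array medians ran from 5.4638 to 5.5332 in adults and from -0.015 to 0.011 in embryos; the number of arrays limits the precision. Embryo spots empty on all arrays (1008) or missing on some (79) and 44 adult control probe sets were left out. Symbols came from the platform annotation: 25148 embryo spots had 1 symbol, 146 several and 5083 none, and 12442 adult probe sets had 1, 327 several and 1197 none.

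Fits used limma 3.58.1 in R 4.3.3 (lmFit and eBayes, two-sided) over all features, with Benjamini-Hochberg adjustment. For adults sex and genotype class were additive, or each sex and class had its own level; for embryos dyes were averaged, then controls, leaving 4 windows, or the window was the factor. Paralog pairs were tested by exact permutation. All members were counted. Both copies of each pair were named, up to 12 members in each direction past the threshold for the sexes, mnn- adults and the controls, up to 6 for other comparisons, and the 4 of smallest p where fewer than 3 passed. The 11 arrays of adults and the embryo windows were left out in turn, and quantile normalization, median centring and dim-feature filters were tried. The members, gene lists and classes were chosen with earlier results of these data known. The fits were tested on simulated data.

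The adult arrays carry a free-text description that calls every one homozygous null, against titles that name wt, control and heterozygous flies, and the titles were followed. Array numbers pair no arrays, but the titles give the same stock or cross to a female and a male array in 4 cases (wt, X113_X84, X46_Y79 and Y79_X46), and a fit of these 8 arrays with the cross as a block was added after seeing the data. Deviations of such partners from their group means correlated at 0.27 over all probe sets in non-mutants and at -0.077 in mnn- flies.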

Additional observations from a re-analysis of the deposited data

Results flagged for a closer look

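Within each sex, 74 sets of adult values (37 genes, 6 female or 5 male arrays) were searched for a single array far from the rest by Dixon's test, which flags about 1 set in 20 by chance, and 7 were found. RpS5b on the wt male array, at 9.11 against 7.27 to 7.45 on the other males, lay in the direction of the females, as did the eggshell and ovary germline probe sets of that array. RpL3 (12.33) and RpL36A (11.82) were low on the wt female array, whose eggshell probe sets were the highest of the females. RpS29 was high on the control male array (7.34), RpS7 low on the mnn- X46_Y79 male array (11.28), and RpL32 (12.27) and RpS30 (11.61) high on the mnn- Y79_Y79 male array. In embryos the search covered only 8 sets, those of spots named for their small p, and 0 were found. A small p favours windows that read alike, so this search cannot tell how common such values are.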

How the results depend on the processing

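For the counts of called members and the pair shifts, 227 of 241 recomputed values were classed as the same as those reported above. Counts could move and still be classed so. The share of all probe sets called was not counted for every alternative, so the ranges below describe the members alone. In non-mutants the sex difference called 33 members, and 23 to 34 over the alternatives. In mnn- flies it called 35, and 27 to 36 over the alternatives. Over all adults the sex difference called 33 to 37 members over its alternatives. The 33 came from a filter on dim probe sets that left RpL10Aa, RpL22-like, RpS10a and RpS28a untested. The median of this sex difference over members moved from -0.43 to -0.34 under quantile normalization. RpS28b lost its call without any 1 of 6 arrays, the wt male, the control female, either mnn- female or the X46_Y79 or Y79_X46 mnn- male, with differences of -0.271 to -0.17 and adjusted p from 0.0532 to 0.0836 (limma); RpLP0 lost it without both wt arrays (-0.19, adjusted p = 0.0735), an alternative chosen after seeing the data. Leaving out windows in turn gave 0 to 1 called members for mnn++ over the windows (1, RpS15Ab, without 2-16 h). The share of all spots called without that window was not counted. Without the control male, RpS5b was -1.76 for mnn- against non-mutant males and -1.87 for the interaction. The wt male was then the only non-mutant male. The mnn- value of RpS5b ran from -0.688 without the control male to 0.0233 without the wt male when single arrays were left out, and was 0.0308 without both wt arrays and -0.906 without both control arrays. Pair shifts between genotypes changed sign when single arrays were left out: RpL10Aa minus RpL10Ab ran from -0.0793 to 0.201, RpL37-2 minus RpL37-1 from -0.0631 to 0.117, RpS28a minus RpS28b from -0.0182 to 0.111 and RpLP0-like minus RpLP0 from -0.087 to 0.087. Quantile normalization gave -0.00437 for RpL37-2 minus RpL37-1 and 0.00589 for RpLP0-like minus RpLP0. The causes were not tested. Choosing the brightest probe set of a gene gave no other value, each adult member having 1. With the cross as a replicate block over 8 arrays, 6 members were higher and 31 lower in males (30.3% and 32.0% of all probe sets), and the interaction called 0, so this pairing changed no call of the members. With 2 non-mutant males, 1 array decides the male genotype comparison.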
